A study of Mus musculus with 20 samples.

Results

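The complement and coagulation genes described here are 47 genes of mouse liver RNA, taken from the deposited gene table by gene name out of 55385 gene IDs. They fall into 20 clotting genes with their inhibitors, 4 fibrinolysis genes and 23 complement genes. All 47 passed the filter on low counts that left 18905 genes for testing. Liver RNA was measured by poly(A)-selected paired-end sequencing in 20 libraries labelled week 24, with 5 in each of 4 groups. The groups were wild-type (WT) mice on chow diet, WT mice on high fat diet (HFD), labelled LXRα-/- mice on chow and labelled LXRα-/- mice on HFD. LXRα, encoded by Nr1h3, is a nuclear receptor for oxysterols that regulates cholesterol and fatty acid genes. The sample titles call the altered genotype LXRα-/-, while another label field calls it a knockdown of LXR. The labels give no strain, sex, age apart from the week, allele, litter or batch, and nothing names the animal behind a library, so a p-value here speaks only of how far the libraries scatter.

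Hepatocytes make most of the plasma proteins of clotting and complement. In clotting, a chain of proteases activates thrombin, which cuts fibrinogen into fibrin, while antithrombin, protein C and other inhibitors hold the chain back and plasmin later dissolves the fibrin. Complement starts from antibody-bound C1, from mannose-binding lectins or from slow activation of C3, and all routes meet at C3 and end in a membrane pore. Several of these genes, fibrinogen and C3 among them, are positive acute phase genes, which hepatocytes raise in response to interleukin 6 and related cytokines. In liver, C1q is made mainly by macrophages rather than by hepatocytes.

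Several features of the libraries bear on every value below. Library totals were 75549139 to 108889938 counts, and the lowest count of any member in any library was 35. The LXRα-/- label did not come with less Nr1h3: 8 of those 10 libraries held 46.6 to 77.2 FPKM, library 4 on chow held 7.89 and library 2 on HFD held 10.3, against 14.3 to 45.3 in the 10 WT libraries. FPKM is the count scaled to gene length and library size. The labels do not say which part of the gene is altered, so a count over the whole gene may miss the change. Mitochondrial genes took 3.89% to 5.67% of the counts in WT chow and 9.77% to 29.6% in the other 15 libraries. Library 2 of WT chow stood apart from its group in acute phase genes, with A2m at 455 CPM (counts scaled to library size) against 0.0291 to 0.422 in the other 4, and Saa1 at 31046 CPM against 1037 to 15773. Saa1, the serum amyloid A gene, was at 7.15 to 291 CPM in the 15 libraries outside WT chow (chosen after its values were seen). Hepatocyte markers were abundant in all 20 libraries, at 54662 to 152380 CPM for 12 genes summed. The tissue label is liver, although the extraction text speaks of an adipose type, and the adipocyte gene Adipoq was at 0 to 8.57 CPM. The 6 markers of B and plasma cells summed to 10.0 to 19.8 CPM in WT chow and 93.7 to 893 in the other 15 libraries. The part of these shifts in the results was not tested, apart from the fits with the mitochondrial share and the clock level named below.

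The 47 members differed mainly between WT chow and everything else. Summed, they took 4.09% to 11.1% of all counts in the WT chow libraries and 1.75% to 2.68% in the other 15. A few members weigh most in that sum. In WT chow library 2, Fga, Fgb, Fgg and C3 held 2934997, 2249546, 1316247 and 1868504 of 99163902 counts. The total also includes the mitochondrial counts, which differed as given above. The summed share therefore does not describe each member. On the TMM-normalized scale, which corrects library size for a few dominant genes, the WT chow libraries lay above all 15 others for 18 members, against 8.74% of all genes tested, and below all of them for Klkb1, the plasma prekallikrein gene, against 5.55%. Both directions make 40.4% of the members and 14.3% of all genes. On FPKM, which has no such correction, 17 members lay above and 2 below, again 40.4%, against 13.3% of all genes.

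**Figure D1:**
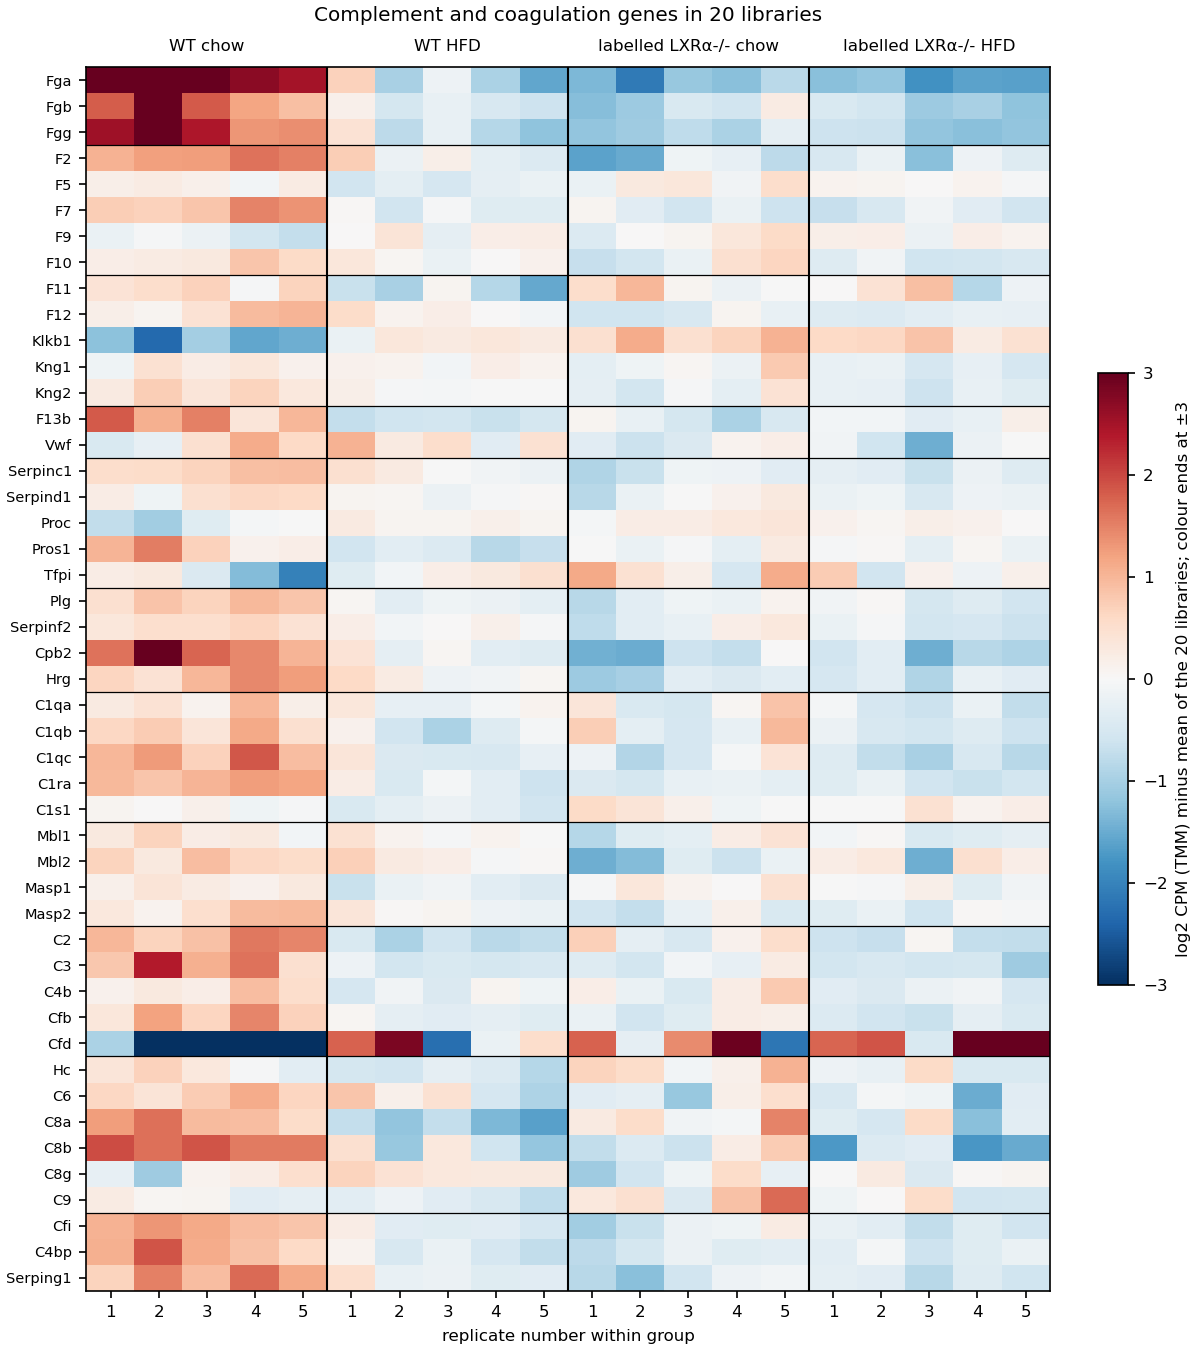
Each row is a member and each column a library, in the order of replicates 1 to 5 within each of 4 groups. Colour is the log2 of TMM-normalized CPM minus the mean of the 20 libraries, and horizontal lines separate the 11 role groups. In 18 rows all 5 WT chow columns lie above the other 15, in the row of Klkb1 all 5 lie below them, and Cfd is lowest in WT chow libraries 2 to 5.

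On chow, the labelled LXRα-/- libraries had lower RNA of most of these genes than WT. With the quasi-likelihood F test of edgeR and Benjamini-Hochberg adjustment over 18905 genes, 27 members fell and 6 rose at an adjusted p under 0.05, together 70.2% of the members against 43.4% of all genes. The median log2 fold change was -0.84 over the members and 0.08 over all genes. Of the 20 clotting genes and inhibitors 11 fell and 4 rose (F9, Klkb1, Proc and Tfpi), all 4 fibrinolysis genes fell, and of the 23 complement genes 12 fell and 2 rose (Cfd and C9). With the counts scaled to totals without mitochondrial genes, the median of all genes moved to 0.42, all genes split into 5785 higher and 2617 lower instead of 4225 and 3972, and the members split into 22 lower and 7 higher with a median of -0.52. Kng2, Serpind1, Pros1, Serpinf2 and C6 lost their calls on chow at that scaling. The mitochondrial share separated WT chow from labelled LXRα-/- chow without overlap, so genotype and mitochondrial share cannot be told apart here. With that share as a covariate 0.963% of all genes were called and 2 members, 4.26%, F13b at -2.26 and Klkb1 at 1.92.

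HFD in WT mice gave a similar count. Relative to WT chow, 29 members fell and 3 rose (Klkb1, Proc and Cfd), together 68.1% against 29.3% of all genes, with a median of -0.65 against 0.02. This comparison and the genotype comparison on chow share the 5 WT chow libraries, so they are not independent of each other. The clotting genes and inhibitors counted 11 lower and 2 higher, the fibrinolysis genes 3 lower, and the complement genes 15 lower and 1 higher. With totals without mitochondrial genes, 23 members fell and 4 rose, 57.4% against 28.8% of all genes. F5, Kng2, Masp1, Masp2, C4b and Hc lost their calls at that scaling. The level of the clock genes, the mean log2 CPM of Arntl and Npas2 minus that of Dbp and Per3, which peak at the opposite time of day, was -6.36 to -4.48 in WT chow and -3.90 to 0.52 in WT HFD. With the mitochondrial share as a covariate 12 members were called, 25.5% against 7.73% of all genes, and with the clock level 21, 44.7% against 10.9%. The mitochondrial share was 3.89% to 5.67% in WT chow and 9.77% to 19.3% in WT HFD. Neither it nor the clock level overlapped between these groups, so diet cannot be told apart from either here.

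Within the labelled LXRα-/- mice, HFD against chow called 0 of the 47 members, against 0.0159% of all genes, and the smallest adjusted p was 0.562. At an unadjusted p under 0.05 there were 10 members, 9 lower and 1 higher, which is 21.3% against 6.76% of all genes. DESeq2, which called 0.349% of all genes, and limma's voom, with 0.0106%, also called 0 members. The 2 groups overlapped for every member, against 0.83% of all genes without overlap. On HFD, labelled LXRα-/- against WT called 0 of 47 members with edgeR, against 0.455% of all genes, with a smallest adjusted p of 0.13. Here 15 members had an unadjusted p under 0.05, 6 higher and 9 lower, which is 31.9% against 14.2% of all genes. DESeq2 called 1 member (C1s1, log2 fold change 0.50), 2.13% against 2.81% of all genes, and voom 2 (F5 at 0.42 and C1s1 at 0.45), 4.26% against 3.61%. Both shares are near the background. The median was -0.23 over the members and 0.03 over all genes, and with plain library totals it was -0.02 against 0.23. On the TMM scale the groups did not overlap for 10 members, 21.3% against 7.53% of all genes: F5, F13b, Pros1 and C1s1 were higher (4 members, against 4.47% of all genes), and F12, Kng1, Kng2, Serpinc1, Hrg and C8g were lower (6 members, against 3.06%). On FPKM 5 members did not overlap, 10.6% against 8.8% of all genes, all higher: the same F5, F13b, Pros1 and C1s1, with Klkb1. The lower set therefore rests on the scaling.

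The genotype difference itself depended on diet for 18 members, 38.3% against 19.4% of all genes. For 17 of them, against 10.2% of all genes, the interaction was positive, so the genotype difference was less negative, or more positive, on HFD than on chow, and for Klkb1 alone, against 9.12% of all genes, it was negative. Scaled to plain library totals, all genes split into 2301 positive and 1234 negative interactions instead of 1936 and 1725, and the members into 22 and 1. With the mitochondrial share as a covariate 1 member stayed, F13b at 2.70, which is 2.13% against 0.402% of all genes. With the clock level 7 stayed, 14.9% against 4.05%.

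**Figure D2:**
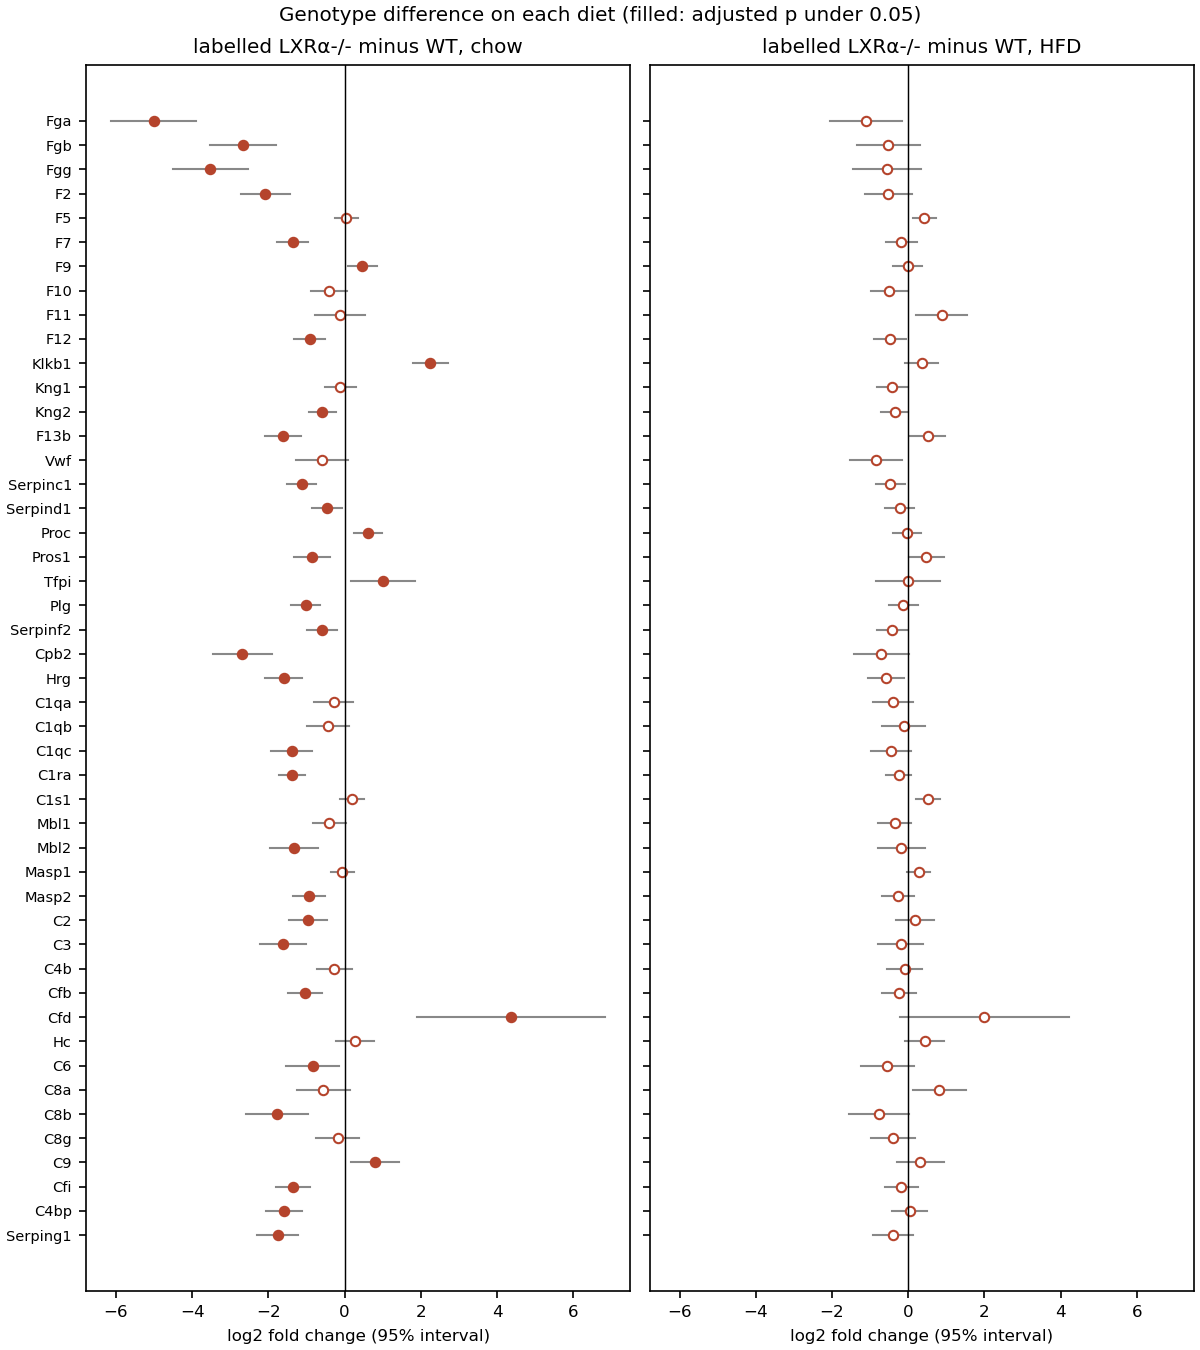
Points are log2 fold changes of labelled LXRα-/- against WT on chow (left) and on HFD (right), with 95% intervals, for all 47 members, and filled points passed an adjusted p under 0.05. On chow 33 points are filled and on HFD 0, and Fga lies farthest to the left on chow at -5.01.

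Fga and Fgg had the largest falls of the set both with the genotype on chow and with HFD in WT, and Fgb was among the next. Fibrinogen is built from pairs of Aα, Bβ and γ chains, encoded by Fga, Fgb and Fgg, which lie together on chromosome 3 of GRCm38, Fgg at chr3:83007724-83015049 and Fga at chr3:83026076-83033627 on the plus strand and Fgb at chr3:83040141-83049863 on the minus strand. The bases before the start of each gene are shown because the 3 genes moved together. They come from RefSeq on GRCm38.p6, 5′ to 3′ on the strand of the gene, 250 bases for Fgg and Fgb and 173 for Fga, where the deposited gene starts before the RefSeq start and the stretch stops at the deposited one. Capitals mark CTGGGA, a core of acute phase (interleukin 6) elements, and GTTAAT, a core of sites for the hepatocyte factor HNF1, on either strand (reverse complements TCCCAG and ATTAAC).
Fgg (chr3:83007474-83007723, plus strand): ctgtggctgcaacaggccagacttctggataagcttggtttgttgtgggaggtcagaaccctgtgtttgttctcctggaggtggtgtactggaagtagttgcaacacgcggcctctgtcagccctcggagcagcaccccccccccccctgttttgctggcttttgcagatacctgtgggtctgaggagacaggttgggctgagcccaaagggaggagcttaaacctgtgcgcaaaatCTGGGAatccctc
Fga (chr3:83025903-83026075, plus strand): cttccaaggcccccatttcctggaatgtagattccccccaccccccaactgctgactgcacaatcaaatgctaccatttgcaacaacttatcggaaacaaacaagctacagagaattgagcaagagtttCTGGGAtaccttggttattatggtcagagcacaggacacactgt
Fgb (chr3:83049864-83050113, minus strand): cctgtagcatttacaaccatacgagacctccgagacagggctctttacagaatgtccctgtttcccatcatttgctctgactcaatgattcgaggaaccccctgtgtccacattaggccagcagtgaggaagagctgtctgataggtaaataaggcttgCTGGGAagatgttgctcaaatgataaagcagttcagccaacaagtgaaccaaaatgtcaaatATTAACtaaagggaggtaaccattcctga
All 3 stretches hold CTGGGA, 13 bases before the RefSeq start in Fgg, 121 in Fga and 91 in Fgb, and GTTAAT as its reverse complement is 29 bases before the start of Fgb and 43 before that of Fga, beyond the stretch printed. The C/EBP motif TTGCNNAA, which overlaps neither of the others here, is 135 bases before the start of Fga and 80 before that of Fgb. Of the 36 members with a RefSeq promoter, 16 held CTGGGA within 250 bases before the start, 44.4% against 27% of 32851 promoters. GTTAAT was in 8 members, 22.2% against 6.43%, and TTGCNNAA in 10, 27.8% against 9.56%. The LXR-type repeat, AGGTCA copied with 4 bases between, was in 0 members against 0.0152% of promoters. That exact string was in only 5 of 32851 promoters, too few for 0 among 36 members to tell anything. A member counted if any of its listed promoters held the motif, while the share over all is of single promoters. A member with several listed promoters would have more chances, so the shares are not strictly alike. These matches describe letters and are not sites of binding.

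Fga was at 3074, 9135, 3149.7, 1593 and 1472 FPKM in WT chow libraries 1 to 5 and at 413, 123, 267, 134 and 90.6 in WT HFD. The labelled LXRα-/- libraries held 107, 74.2, 129, 109.7 and 137 on chow and 134, 133, 90.0, 100.4 and 92.2 on HFD. Every WT chow library was far above the other 15, with library 2 highest, and WT HFD library 1 was the highest of the rest. On chow the log2 fold change of the genotype was -5.01, SE 0.53, adjusted p = 7.13e-07, and that of HFD in WT was -4.11, SE 0.50, adjusted p = 9.57e-06. Without WT chow library 2 they were -4.35 and -3.44, both still called.

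Fgb, which carries the Bβ chain, was at 2019.9, 5531, 1899.7, 1039 and 916 FPKM in WT chow and 537, 318, 485, 353 and 329 in WT HFD. The labelled LXRα-/- libraries held 209, 283, 391, 335 and 536 on chow and 439, 378, 281, 294 and 232 on HFD. The WT chow group again did not overlap any other, but the gap was narrower than for Fga, from 916 in WT chow down to 537 as the highest of the other 15. Its log2 fold change was -2.66, SE 0.41, adjusted p = 3.88e-05 for the genotype on chow and -2.44, SE 0.41, adjusted p = 0.000179 for HFD in WT. Without WT chow library 2 these were -2.02 and -1.80, still called.

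Fgg, the γ chain gene, was at 2251, 5892, 1939.6, 780.1 and 879 FPKM in WT chow and 441, 182, 326, 184 and 149 in WT HFD. For labelled LXRα-/- mice the values were 153, 197, 215, 174 and 257 on chow and 266, 243, 179.7, 164 and 161 on HFD. Here too only WT chow was high, and the other 3 groups overlapped. The genotype on chow gave -3.53, SE 0.46, adjusted p = 6.96e-06, and HFD in WT gave -3.13, SE 0.45, adjusted p = 4.6e-05. Leaving out WT chow library 2 gave -2.84 and -2.44, still called. On HFD the genotype differences of Fga, Fgb and Fgg were -1.11, -0.52 and -0.54, with 95% intervals of -2.06 to -0.16, -1.34 to 0.30 and -1.44 to 0.35, none past the threshold. The interactions were 3.91, 2.14 and 2.99, with adjusted p of 0.000422, 0.0101 and 0.00196. Without that library they were 3.24, 1.5 and 2.29, also called.

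**Figure D3:**
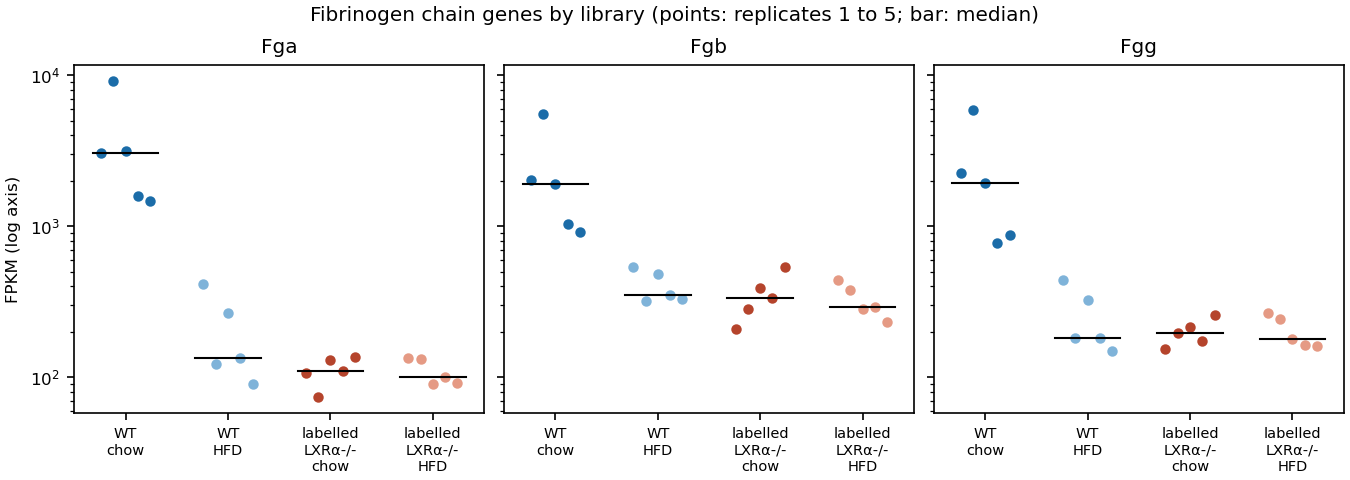
FPKM of the 3 fibrinogen genes on a log axis, with 1 point per library in the order of replicates 1 to 5 and a bar at the group median. In all 3 panels the 5 WT chow points lie above the other 15.

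The balance of the 3 chains also shifted. Per length, Fga led in WT chow, at 1.52 to 1.66 times Fgb, while in the other groups Fgb led, with Fga at 0.275 to 0.769 times Fgb in WT HFD, 0.256 to 0.509 in labelled LXRα-/- mice on chow and 0.304 to 0.397 in labelled LXRα-/- HFD. The 5 WT chow ratios lay within a narrow span although Fga itself ranged from 1472 to 9135 FPKM there. Fgg ran at 0.751 to 1.11 times Fgb in WT chow and at 0.454 to 0.820 in the other 15 libraries, so WT chow overlapped WT HFD. These ratios are described without a test.

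**Figure D4:**
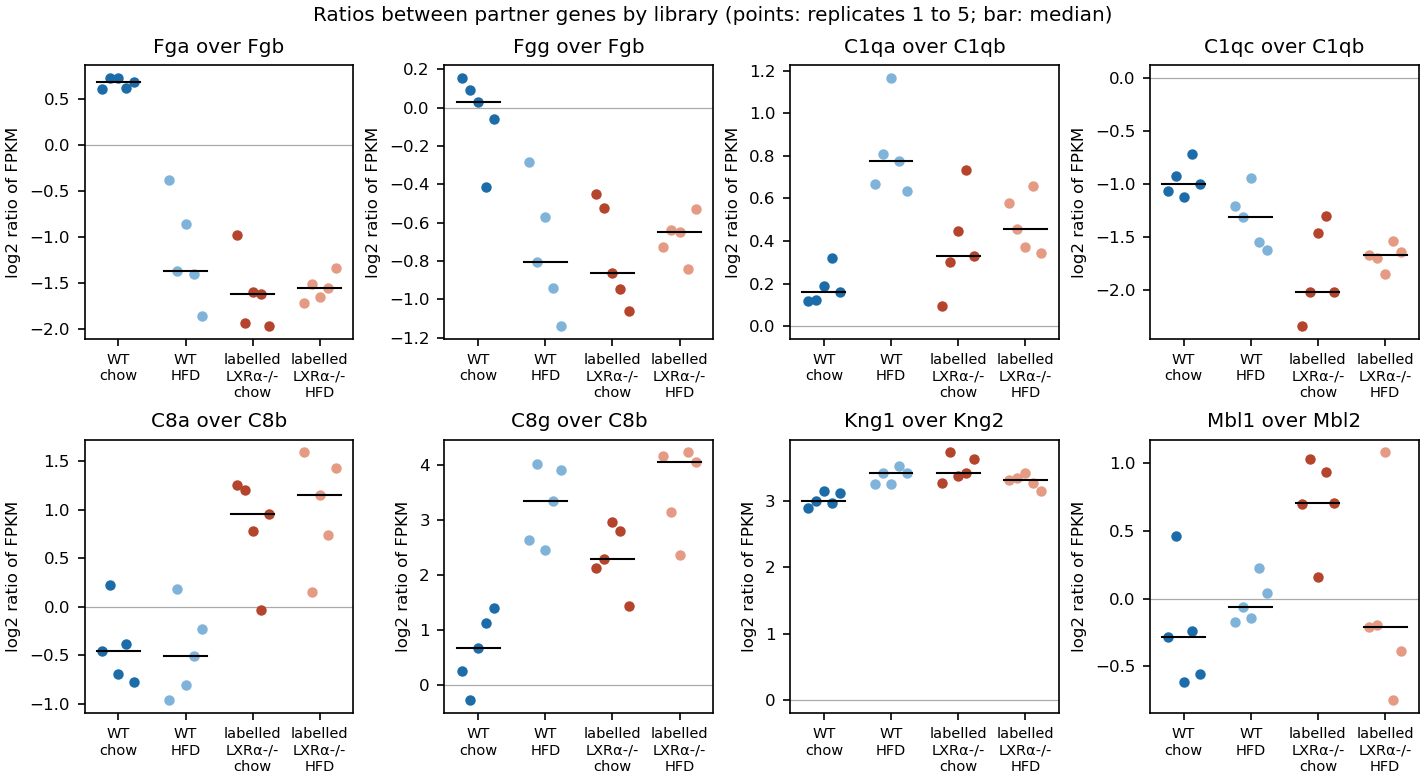
Log2 ratios of FPKM between partner genes, with 1 point per library and a bar at the group median. Fga over Fgb lies above 0 in the 5 WT chow libraries and below 0 in the other 15, and C8a over C8b has medians above 0 in both labelled LXRα-/- groups and below 0 in both WT groups.

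Among the thrombin, vitamin K-dependent and cofactor genes, F2 and F7 fell on chow, F9 rose, and F5 and F10 did not pass. F2 encodes prothrombin. It was at 350.0, 359.8, 373, 422 and 412 FPKM in WT chow and 237, 119, 189, 119 and 113 in WT HFD. Labelled LXRα-/- livers had 49.3, 63.0, 145, 124 and 77.3 on chow and 128, 145, 74.2, 154 and 121 on HFD. WT chow was uniform and highest, and the lowest values were in labelled LXRα-/- chow libraries 1 and 2. The genotype on chow gave -2.08, SE 0.30, adjusted p = 2.2e-05, HFD in WT -1.28, SE 0.30, adjusted p = 0.00297, and the interaction 1.56, SE 0.42, adjusted p = 0.0121.

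F7, the protease that tissue factor activates, was at 55.4, 48.9, 55.7, 75.0 and 73.5 FPKM in WT chow and 28.8, 18.1, 31.9, 22.3 and 23.1 in WT HFD. For labelled LXRα-/- mice the values were 31.8, 28.1, 21.2, 25.5 and 17.2 on chow and 22.1, 23.5, 32.6, 26.8 and 21.1 on HFD. WT chow was again above the rest, with libraries 4 and 5 highest, and the other 3 groups overlapped. F7 fell with the genotype on chow (-1.36, SE 0.19, adjusted p = 1.51e-05) and with HFD in WT (-1.30, SE 0.19, adjusted p = 5.31e-05), and its interaction was 1.18 (adjusted p = 0.00429). F10 encodes factor X, the protease that cuts prothrombin, and lies next to F7 on chromosome 8. Its log2 fold changes were -0.41 on chow and -0.37 for HFD in WT, neither past the threshold, and it held 103 to 266 FPKM over all 20 libraries.

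F9, the X-linked gene of factor IX, was at 23.5 to 39.3 FPKM in WT chow and 30.2 to 52.6 in labelled LXRα-/- chow, which overlapped. It rose on chow (0.47, SE 0.18, adjusted p = 0.0417), and the call was lost without WT chow libraries 1, 4 or 5 or labelled LXRα-/- chow libraries 3, 4 or 5 (0.34 to 0.58 over the 10 fits). F5, the cofactor of factor X, was at 18.2 to 27.6 FPKM in WT chow and 18.9 to 31.5 in labelled LXRα-/- chow (0.04, adjusted p = 0.857). It fell with HFD in WT (-0.52, SE 0.14, adjusted p = 0.00935), where it held 13.6 to 18.6, and labelled LXRα-/- HFD held 22.3 to 27.6. That last group lay wholly above WT HFD, at 0.43 with an adjusted p of 0.184.

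In the contact system, Klkb1 was the one gene that rose on chow and with HFD in WT. Klkb1 encodes plasma prekallikrein, which activates factor XII and frees bradykinin from kininogen. It was at 19.0, 8.11, 20.4, 12.3 and 13.9 FPKM in WT chow and 32.9, 46.0, 53.4, 49.1 and 48.1 in WT HFD. With the labelled LXRα-/- genotype it was at 56.3, 102, 59.2, 62.0 and 73.7 on chow and 72.4, 67.5, 85.1, 54.2 and 58.2 on HFD. All 5 WT chow libraries lay below the rest, lowest in library 2, where the fibrinogen genes were highest. Klkb1 rose with the genotype on chow (2.25, SE 0.22, adjusted p = 3.14e-07) and with HFD in WT (1.68, SE 0.21, adjusted p = 1.17e-05), and its interaction was -1.89, SE 0.29, adjusted p = 0.000257.

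F11, the paralog next to Klkb1 on chromosome 8, encodes factor XI and did not share that pattern. It was at 23.7, 23.5, 26.7, 13.9 and 24.4 FPKM in WT chow, 9.41, 7.29, 18.6, 8.498 and 5.44 in WT HFD, 23.2, 37.7, 17.7, 13.8 and 14.0 in labelled LXRα-/- mice on chow and 18.9, 23.6, 34.8, 10.0 and 15.03 in labelled LXRα-/- HFD. The highest values were in library 2 of labelled LXRα-/- chow and library 3 of labelled LXRα-/- HFD. Those libraries also had the highest clock levels of their groups, -1.36 and -1.27, against -5.56 to -4.41 and -6.98 to -5.79 in the others. In WT chow and WT HFD the highest F11 was in library 3 of each. The highest clock levels there were in WT chow library 2 (-4.48) and WT HFD library 4 (0.52). Whether F11 follows the clock level within a group was not tested. F11 fell with HFD in WT (-1.17, SE 0.31, adjusted p = 0.00818) and was -0.12 for the genotype on chow, not past the threshold. The call with HFD in WT stayed with the clock level as a covariate and was lost with the mitochondrial share. Neither covariate overlapped between WT chow and WT HFD.

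F12, factor XII, which starts the contact pathway on charged surfaces, was at 247, 213, 277, 341 and 383 FPKM in WT chow and 269.7, 189, 248, 191 and 183 in WT HFD. Labelled LXRα-/- livers had 130.0, 153, 148, 203 and 150.4 on chow and 179, 161, 186, 191 and 174 on HFD. On chow the groups did not overlap and F12 fell (-0.92, SE 0.20, adjusted p = 0.000826). HFD in WT gave -0.42 (adjusted p = 0.118), not past the threshold. The kininogen genes Kng1 and Kng2 are near copies in the mouse, so the counts of each are uncertain. Kng1 had the highest median FPKM of the 47 genes over all libraries, 726, and its range was 519 to 1073. Kng1 passed in no comparison, and Kng2 fell with the genotype on chow (-0.59, SE 0.17, adjusted p = 0.00783) and with HFD in WT (-0.47, SE 0.17, adjusted p = 0.0402). The latter call was lost without WT chow libraries 2 or 4 or WT HFD libraries 2, 3, 4 or 5 (-0.52 to -0.40 over the 10 fits). The Kng2 call on chow was lost with totals without mitochondrial genes and with the groups compared alone. The ratio of Kng1 to Kng2 was 7.40 to 8.86 in WT chow and 8.83 to 13.3 in the other 15 libraries.

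F13b, the carrier subunit of factor XIII, which crosslinks fibrin, had the smallest interaction p of the 47. It was at 27.7, 14.8, 20.6, 8.04 and 13.4 FPKM in WT chow and 4.00, 4.13, 5.19, 4.19 and 4.74 in WT HFD. With the labelled LXRα-/- genotype it was at 7.33, 7.01, 5.09, 3.49 and 4.40 on chow and 7.72, 7.18, 6.41, 6.76 and 8.21 on HFD. WT chow library 4 was the lowest of its group and fell below the highest labelled LXRα-/- HFD library, while labelled LXRα-/- HFD lay above WT HFD throughout. F13b fell with the genotype on chow (-1.63, SE 0.22, adjusted p = 1.17e-05) and with HFD in WT (-1.86, SE 0.23, adjusted p = 8.99e-06), and the interaction was 2.14, SE 0.31, adjusted p = 0.000155. The difference on HFD was 0.51 with an adjusted p of 0.288.

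Vwf, von Willebrand factor, which tethers platelets and is made by endothelium and megakaryocytes, was among the lowest members. It was at 0.242, 0.253, 0.429, 0.570 and 0.428 FPKM in WT chow and 0.576, 0.321, 0.466, 0.225 and 0.403 in WT HFD. The labelled LXRα-/- libraries held 0.234, 0.224, 0.231, 0.309 and 0.302 on chow and 0.324, 0.213, 0.124, 0.296 and 0.308 on HFD. The groups overlapped in all comparisons and Vwf passed in none of the 5. Fewer cells of a type and less RNA per cell cannot be told apart in bulk liver, for Vwf as for every gene below.

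Of the 5 anticoagulant genes, 3 fell and 2 rose on chow. Serpinc1 encodes antithrombin, the main inhibitor of thrombin. It was at 202, 187, 205, 209 and 230.2 FPKM in WT chow and 163, 135, 136, 112 and 109 in WT HFD. The labelled LXRα-/- libraries held 67.4, 93.3, 120.5, 110.0 and 87.7 on chow and 122, 108, 91.4, 125 and 101 on HFD. WT chow was above all others, and the other groups overlapped on this scale. Serpinc1 fell with the genotype on chow (-1.13, SE 0.18, adjusted p = 6.58e-05) and with HFD in WT (-0.62, SE 0.18, adjusted p = 0.0141), and the interaction of 0.66 missed the threshold (adjusted p = 0.0763).

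Pros1 encodes protein S, the cofactor of activated protein C. It was at 9.43, 12.2, 6.95, 4.04 and 4.54 FPKM in WT chow and 2.63, 2.98, 3.41, 2.25 and 2.52 in WT HFD. For labelled LXRα-/- mice the values were 4.09, 4.25, 4.24, 3.29 and 4.42 on chow and 4.75, 4.66, 3.94, 4.89 and 3.77 on HFD. WT HFD was the lowest group, reached by labelled LXRα-/- chow library 4 alone, and WT chow library 4 lay within the labelled LXRα-/- chow range. Pros1 fell with the genotype on chow (-0.86, SE 0.22, adjusted p = 0.00347) and with HFD in WT (-1.37, SE 0.22, adjusted p = 0.000127), and its interaction was 1.33, SE 0.31, adjusted p = 0.00495. Proc, the gene of protein C itself, rose where Pros1 fell, with 125 to 243 FPKM in WT chow and 243 to 352 in the other 15 libraries, which met but did not overlap. On the TMM scale Proc in WT chow overlapped labelled LXRα-/- chow, so the separation rests on the scaling. The genotype on chow gave 0.61, SE 0.17, adjusted p = 0.00718 and HFD in WT 0.53, SE 0.17, adjusted p = 0.025. The latter call was lost without WT chow libraries 1 or 2 or WT HFD libraries 1 or 4 (0.40 to 0.64 over the 10 fits).

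Serpind1, heparin cofactor II, fell on chow (-0.46, SE 0.18, adjusted p = 0.0456), and Tfpi, the inhibitor of the tissue factor pathway, rose (1.0, SE 0.40, adjusted p = 0.0481). The groups of both overlapped. The call of Serpind1 was lost without WT chow libraries 3, 4 or 5 or labelled LXRα-/- chow libraries 1, 2 or 3 (-0.58 to -0.33 over the 10 fits), and that of Tfpi without WT chow libraries 3, 4 or 5 or labelled LXRα-/- chow libraries 1, 2 or 5 (0.77 to 1.24 over the 10 fits). Serpind1 also lost its call in 8 other settings and Tfpi in 7, plain library totals among them for both. Tfpi was at 0.0742 to 0.714 FPKM over all libraries, and with Vwf it was the lowest of the 47 by median.

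All 4 fibrinolysis genes were lower in labelled LXRα-/- than in WT on chow. The one with the smallest p over the groups was Cpb2, which encodes the carboxypeptidase that protects fibrin from plasmin. It was at 230.2, 559, 235, 162 and 130.0 FPKM in WT chow and 84.2, 50.0, 76.5, 52.1 and 50.4 in WT HFD. For labelled LXRα-/- mice the values were 24.9, 28.3, 45.6, 39.9 and 60.1 on chow and 52.9, 58.9, 28.4, 43.0 and 37.2 on HFD. WT chow was above the rest, with library 2 highest as for fibrinogen. Cpb2 fell with the genotype on chow (-2.69, SE 0.36, adjusted p = 9.94e-06) and with HFD in WT (-2.02, SE 0.36, adjusted p = 0.000289), with an interaction of 1.99, SE 0.49, adjusted p = 0.00748.

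Hrg, histidine-rich glycoprotein, binds plasminogen, fibrinogen and heparin. It was at 637, 499, 747, 886 and 838 FPKM in WT chow and 513, 389, 357, 326 and 375 in WT HFD. Labelled LXRα-/- livers had 171, 216, 306, 262 and 257 on chow and 302, 319, 228, 352 and 303 on HFD. Library 2 was the lowest of WT chow for Hrg and overlapped WT HFD library 1, the reverse of its place for Cpb2. Hrg fell with the genotype on chow (-1.60, SE 0.23, adjusted p = 1.7e-05) and with HFD in WT (-0.85, SE 0.22, adjusted p = 0.00721). Its interaction of 1.004 (adjusted p = 0.0298) lost its call without WT chow libraries 4 or 5, WT HFD libraries 3, 4 or 5, labelled LXRα-/- chow libraries 1 or 2 or labelled LXRα-/- HFD libraries 2, 4 or 5 (0.87 to 1.14 over the 20 fits).

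Plg, plasminogen, was at 559.8 to 659 FPKM in WT chow and 202 to 399 in the other 15 libraries. It fell with the genotype on chow (-1.02, SE 0.18, adjusted p = 0.000158) and with HFD in WT (-0.95, SE 0.18, adjusted p = 0.000601). Serpinf2, which encodes the plasmin inhibitor α2-antiplasmin, was at 409 to 461 and 186 to 351 FPKM in the same sets. It fell with the genotype on chow (-0.59, SE 0.18, adjusted p = 0.0133), and HFD in WT gave -0.43 (adjusted p = 0.082), not past the threshold. The call of Serpinf2 on chow was lost with totals without mitochondrial genes and with the groups compared alone. Both the enzyme and its inhibitor were thus highest in WT chow, without overlap.

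In the C1 complex, the protease gene C1ra and the C1q chain gene C1qc fell on chow, while C1qa, C1qb and C1s1 did not pass. C1ra, whose product cuts C1s, was at 104, 85.3, 100, 102 and 103 FPKM in WT chow and 51.9, 31.1, 50.3, 36.9 and 30.3 in WT HFD. Labelled LXRα-/- livers had 35.3, 39.2, 42.6, 39.8 and 34.2 on chow and 43.8, 45.1, 37.0, 33.5 and 33.9 on HFD. WT chow was far above the rest, and the other 3 groups overlapped. C1ra fell with the genotype on chow (-1.39, SE 0.16, adjusted p = 1.83e-06) and with HFD in WT (-1.27, SE 0.16, adjusted p = 1.22e-05), with an interaction of 1.14, SE 0.22, adjusted p = 0.0016. C1ra and C1s1 have near copies, C1rb and C1s2, so their counts are uncertain.

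C1s1, whose product cuts C4 and C2, moved apart from C1ra. It held 78.8 to 113 FPKM in WT chow, 63.5 to 92.2 in WT HFD, 84.5 to 149 in labelled LXRα-/- mice on chow and 103 to 153 in labelled LXRα-/- HFD. On HFD every labelled LXRα-/- library was above every WT library, with a log2 fold change of 0.52 and an adjusted p of 0.13 in edgeR, the smallest of the 47 in that comparison.

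C1qc, the C chain of C1q, was at 21.5, 23.6, 16.1, 31.5 and 17.5 FPKM in WT chow and 11.6, 6.31, 7.70, 6.61 and 8.02 in WT HFD. With the labelled LXRα-/- genotype it was at 8.57, 6.18, 7.04, 8.88 and 11.3 on chow and 8.65, 6.30, 5.74, 7.77 and 5.69 on HFD. WT chow did not overlap the others, and C1qc fell with the genotype on chow (-1.39, SE 0.25, adjusted p = 0.000187) and with HFD in WT (-1.43, SE 0.25, adjusted p = 0.000294). C1qb fell with HFD in WT (-1.02, SE 0.27, adjusted p = 0.00673), and C1qa passed in no comparison. The 3 chain genes lie side by side on chromosome 4 and their products form 1 protein, yet C1qc to C1qb was 0.459 to 0.608 in WT chow, 0.324 to 0.520 in WT HFD, 0.198 to 0.406 in labelled LXRα-/- mice on chow and 0.277 to 0.343 in labelled LXRα-/- HFD. The 10 markers of Kupffer cells, the resident macrophages of liver, summed to 201 to 323 CPM in WT chow, 109 to 149 in WT HFD, 83.5 to 206 in labelled LXRα-/- mice on chow and 72.7 to 107 in labelled LXRα-/- HFD. On chow 8 of those 10 fell and 0 rose, 80% lower against 21% of all genes. With HFD in WT 6 fell, 60% against 15%, and between genotypes on HFD 3 fell, 30% against 0.201%. Between diets in labelled LXRα-/- 0 were called, against 0.0159% of all genes in either direction. No marker was at 0 in all libraries of a group. Their part in the C1q values was not tested.

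Of the lectin pathway genes, Mbl2 and Masp2 fell on chow, and Mbl1 and Masp1 did not pass. Masp2 encodes the protease that cuts C4 and C2 once a lectin has bound. It was at 61.4, 48.2, 65.0, 76.2 and 83.3 FPKM in WT chow and 53.7, 40.6, 51.6, 38.4 and 37.8 in WT HFD. The labelled LXRα-/- libraries held 29.4, 31.8, 40.0, 47.4 and 28.6 on chow and 40.6, 41.7, 33.9, 50.9 and 45.0 on HFD. On FPKM the chow groups just failed to touch, with 48.2 as the lowest WT value and 47.4 as the highest labelled value. Masp2 fell with the genotype on chow (-0.94, SE 0.20, adjusted p = 0.000838) and with HFD in WT (-0.57, SE 0.20, adjusted p = 0.0379), and the latter call was lost in every fit without 1 library but those without WT chow libraries 1 or 2 or WT HFD library 1 (-0.67 to -0.46 over the 10 fits). The deposited coordinates of Masp2 overlap Tardbp on the other strand, whose counts were 74.3% of those of Masp2, and the counting is not stated to use strand.

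Mbl2, mannose-binding lectin C, was at 226, 159, 255, 177 and 182 FPKM in WT chow and 198, 139, 161, 121 and 130.2 in WT HFD. For labelled LXRα-/- mice the values were 46.6, 61.4, 104, 80.3 and 99.5 on chow and 176, 173, 54.6, 204 and 155 on HFD. Labelled LXRα-/- chow lay below WT chow, and in labelled LXRα-/- HFD library 3 alone was low. Mbl2 fell with the genotype on chow (-1.34, SE 0.30, adjusted p = 0.00116). HFD in labelled LXRα-/- gave 0.80 with an adjusted p of 0.611, not past the threshold. Mbl1, mannose-binding lectin A, passed in no comparison and held 75.5 to 219 FPKM. Its ratio to Mbl2 had a median of 1.64 in labelled LXRα-/- mice on chow and of 0.821 to 0.956 in the other 3 groups, with overlapping ranges. Masp1, which activates Masp2, fell with HFD in WT (-0.57, SE 0.14, adjusted p = 0.00439). It held 10.3 to 13.9 FPKM in WT chow and 6.21 to 10.7 in WT HFD, which overlapped on FPKM and not on the TMM scale.

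The convertase genes C2, C3 and Cfb fell on chow, C4b did not pass and Cfd rose. C3 encodes the protein on which all complement routes meet. It was at 1260.5, 3404, 1399.7, 1767 and 867 FPKM in WT chow and 545, 391, 515, 430.4 and 451 in WT HFD. With the labelled LXRα-/- genotype it was at 492, 516, 633, 529 and 671 on chow and 519.7, 498, 509, 503 and 322 on HFD. All WT chow libraries were above the rest and library 2 was highest. C3 fell with the genotype on chow (-1.62, SE 0.29, adjusted p = 0.000146) and with HFD in WT (-1.87, SE 0.29, adjusted p = 8.27e-05), with an interaction of 1.42, SE 0.40, adjusted p = 0.0156.

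C2, the protease of the classical and lectin convertase, was at 38.7, 27.7, 33.1, 46.2 and 45.6 FPKM in WT chow and 11.9, 8.04, 12.8, 9.56 and 10.2 in WT HFD. Labelled LXRα-/- livers had 28.5, 17.0, 13.01, 18.2 and 22.3 on chow and 13.3, 11.7, 21.2, 11.9 and 10.8 on HFD. WT HFD was well below WT chow without overlap, and labelled LXRα-/- chow overlapped WT chow at its top library. C2 fell with HFD in WT (-1.85, SE 0.24, adjusted p = 1.64e-05) and with the genotype on chow (-0.96, SE 0.24, adjusted p = 0.00268), and its interaction was 1.14, SE 0.33, adjusted p = 0.0193. HFD in labelled LXRα-/- gave -0.70, with the smallest adjusted p of the 47 there, 0.562.

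Cfb, the protease of the alternative convertase and the neighbour of C2 on chromosome 17, was at 315 to 551 FPKM in WT chow and 162 to 249.7 in the other 15 libraries. It fell with the genotype on chow (-1.04, SE 0.21, adjusted p = 0.000447) and with HFD in WT (-1.16, SE 0.21, adjusted p = 0.00034). C4b, the gene of the fourth component, has the near copy C4a, so its counts are uncertain. It held 276 to 392 FPKM in WT chow and fell with HFD in WT (-0.65, SE 0.22, adjusted p = 0.0285) while WT HFD held 151 to 234. That call was lost without WT chow libraries 4 or 5 or WT HFD libraries 1 or 3 (-0.74 to -0.50 over the 10 fits).

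Cfd encodes factor D, also called adipsin, which cuts factor B and is made mainly by adipocytes. It was at 6.73, 0.622, 0.529, 0.322 and 0.791 FPKM in WT chow and 37.7, 75.3, 2.66, 9.77 and 16.8 in WT HFD. With the labelled LXRα-/- genotype it was at 40.3, 11.6, 32.8, 87.3 and 2.30 on chow and 46.3, 47.3, 9.92, 255 and 309.6 on HFD. WT chow was low apart from library 1, and each other group was spread widely and overlapped the other 2. Cfd rose with the genotype on chow (4.38, SE 1.16, adjusted p = 0.00485) and with HFD in WT (4.20, SE 1.16, adjusted p = 0.00961), with the widest errors of the set. Fits that left out 1 library kept both calls. They ran from 3.65 to 5.89 on chow, lowest without labelled LXRα-/- chow library 4 and highest without WT chow library 1, and from 3.38 to 5.71 with HFD in WT, lowest without WT HFD library 2 and highest without WT chow library 1. The highest levels were in libraries 4 and 5 of labelled LXRα-/- HFD, where the adipocyte gene Adipoq was at 0 CPM. WT HFD library 1 held the most Adipoq, 8.57 CPM, with Plin1 at 5.06, Lep at 1.65 and Retn at 6.36, and Cfd there was 37.7 FPKM. The 7 adipocyte markers summed to 26.3 to 60.0 CPM in WT chow and 16.7 to 88.1 in the other 15 libraries, with 0 of the 5 tested called in any of the comparisons above. In labelled LXRα-/- HFD the sum was 25.9 to 72.6 CPM, although Adipoq was low there. The source of the Cfd RNA was not tested.

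Of the terminal pathway genes, C8b and C6 fell and C9 rose on chow. C8b encodes the β chain of C8, which anchors the pore. It was at 197, 146, 174, 119 and 128 FPKM in WT chow and 59.8, 18.6, 62.2, 28.8 and 20.2 in WT HFD. Libraries of labelled LXRα-/- mice held 27.2, 40.3, 30.5, 51.1 and 68.7 on chow and 16.3, 37.0, 41.7, 15.3 and 16.8 on HFD. WT chow was above all others, and the rest spread over a wide range. C8b fell with the genotype on chow (-1.78, SE 0.38, adjusted p = 0.000868) and with HFD in WT (-1.98, SE 0.38, adjusted p = 0.000671).

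C8a, the α chain, was at 144, 171, 108, 91.2 and 75.2 FPKM in WT chow and 30.7, 21.2, 35.7, 20.2 and 17.2 in WT HFD. For labelled LXRα-/- mice the values were 64.9, 92.6, 52.6, 50.1 and 133 on chow and 49.3, 41.0, 92.7, 25.6 and 45.2 on HFD. WT HFD was far below WT chow, while labelled LXRα-/- chow overlapped WT chow. C8a fell with HFD in WT (-2.19, SE 0.34, adjusted p = 9.26e-05), and the genotype on chow gave -0.56 (adjusted p = 0.182). Its interaction of 1.37 (adjusted p = 0.0434) lost its call in every fit without 1 library but those without WT chow library 5, WT HFD libraries 1 or 3, labelled LXRα-/- chow library 5 or labelled LXRα-/- HFD library 4 (1.06 to 1.73 over the 20 fits).

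The 2 chain genes lie beside each other on chromosome 4 and did not keep step. The ratio of C8a to C8b had medians of 0.728 in WT chow and 0.703 in WT HFD, against 1.94 in labelled LXRα-/- mice on chow and 2.22 in labelled LXRα-/- HFD. The ranges were 0.586 to 1.17, 0.513 to 1.13, 0.979 to 2.39 and 1.11 to 3.02, so the genotypes overlapped slightly on each diet. C8g, the γ chain on chromosome 2, passed in no comparison and held 119 to 372 FPKM, and its ratio to C8b was 0.823 to 2.64 in WT chow and 2.69 to 18.8 in the other 15 libraries.

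C6, which joins C5b to open the pore assembly, fell on chow (-0.84, SE 0.33, adjusted p = 0.045), with 74.1 to 108 FPKM in WT chow and 26.6 to 70.1 in labelled LXRα-/- chow. The call of C6 was lost in every fit without 1 library but those without WT chow library 2 or labelled LXRα-/- chow libraries 4 or 5 (-1.05 to -0.67 over the 10 fits). C9, which forms the ring of the pore, rose on chow (0.79, SE 0.30, adjusted p = 0.0356), with 72.6 to 135 FPKM in WT chow and 80.3 to 296 in labelled LXRα-/- chow. The call of C9 was lost without WT chow libraries 2, 3, 4 or 5 or labelled LXRα-/- chow libraries 4 or 5 (0.42 to 0.98 over the 10 fits). Hc encodes C5, from which the pore assembly starts. It fell with HFD in WT (-0.77, SE 0.24, adjusted p = 0.0207), with 53.8 to 114 FPKM in WT chow and 37.5 to 63.5 in WT HFD, a call lost without WT chow library 2 or WT HFD library 5 (-0.88 to -0.63 over the 10 fits). It held 68.6 to 126 in labelled LXRα-/- mice on chow and 53.0 to 120.2 in labelled LXRα-/- HFD.

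**Figure D5:**
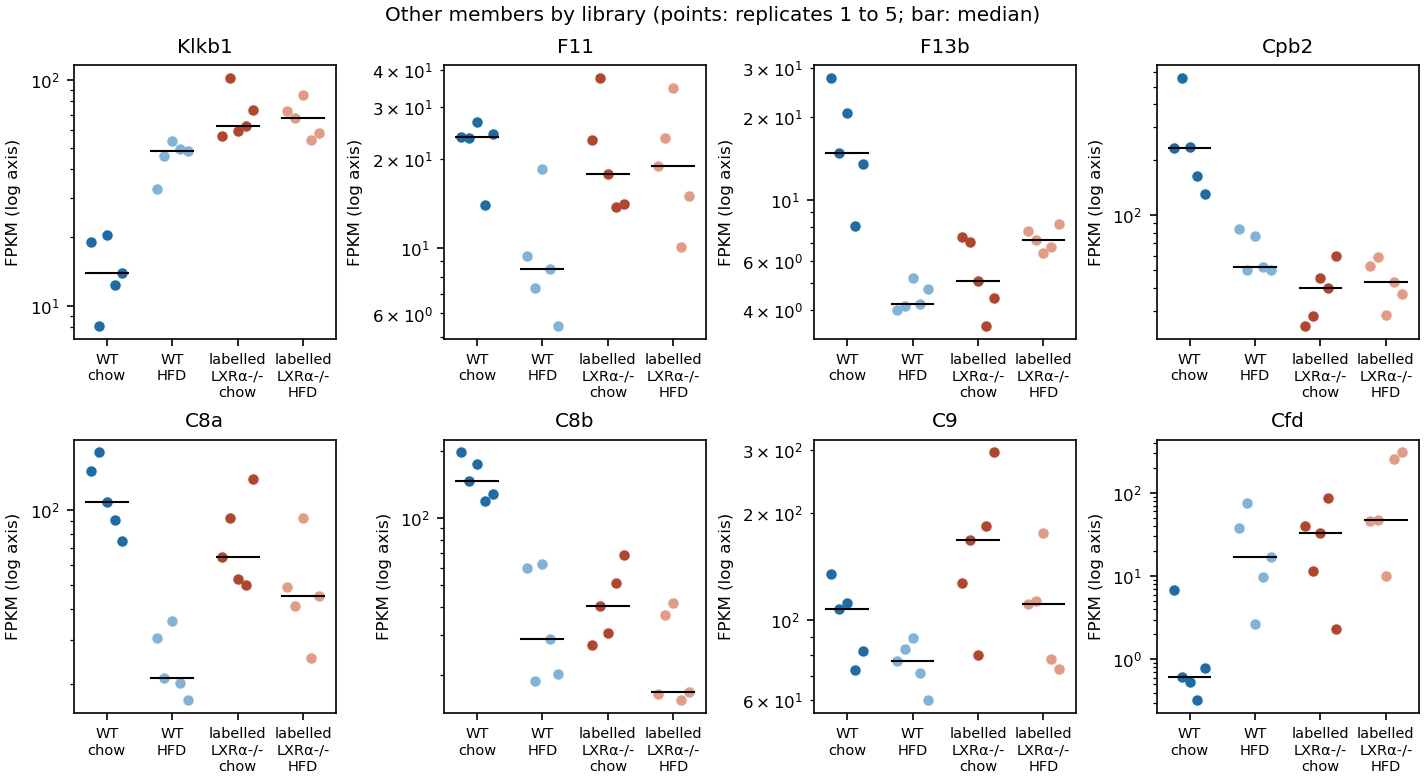
FPKM of 8 members on log axes, with 1 point per library in the order of replicates 1 to 5 and a bar at the group median. Klkb1 is lowest in WT chow, Cpb2 and C8b are highest there, F13b is highest there but for library 4, and Cfd spreads from 0.322 to 310 FPKM.

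The 3 complement regulators all fell on chow and with HFD in WT. C4bp, the gene of C4b-binding protein, which removes the classical convertase, was at 74.2, 118, 70.9, 51.7 and 46.2 FPKM in WT chow and 31.9, 20.5, 30.0, 21.4 and 18.7 in WT HFD. Labelled LXRα-/- livers had 18.4, 25.9, 29.3, 24.0 and 22.6 on chow and 29.9, 33.1, 24.1, 27.9 and 29.0 on HFD. WT chow was highest throughout, with library 2 on top. C4bp fell with the genotype on chow (-1.59, SE 0.22, adjusted p = 1.11e-05) and with HFD in WT (-1.51, SE 0.22, adjusted p = 4.21e-05), with an interaction of 1.63, SE 0.30, adjusted p = 0.00105.

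Cfi, factor I, which cuts C3b and C4b, was at 249, 277, 248, 186 and 185 FPKM in WT chow and 118, 77.4, 93.0, 82.2 and 75.5 in WT HFD. With the labelled LXRα-/- genotype it was at 52.7, 80.3, 100.3, 95.5 and 113 on chow and 110.4, 95.1, 76.3, 95.2 and 76.7 on HFD. WT chow did not overlap the other groups, which overlapped one another. Cfi fell with the genotype on chow (-1.36, SE 0.21, adjusted p = 3.52e-05) and with HFD in WT (-1.31, SE 0.21, adjusted p = 0.000112), with an interaction of 1.17 (adjusted p = 0.00772).

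Serping1, the C1 inhibitor, blocks C1r, C1s, kallikrein and factor XIIa, and so belongs to both systems. It was at 437, 712, 482, 717 and 519 FPKM in WT chow and 329, 188, 238, 182 and 190.4 in WT HFD. Libraries of labelled LXRα-/- mice held 139, 121, 173, 214 and 205 on chow and 236, 212, 161, 212 and 169.5 on HFD. WT chow was highest, led by libraries 2 and 4. Serping1 fell with the genotype on chow (-1.76, SE 0.25, adjusted p = 1.7e-05) and with HFD in WT (-1.32, SE 0.25, adjusted p = 0.000508), with an interaction of 1.36, SE 0.35, adjusted p = 0.00904.

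Other genes of these pathways, from a list of 51 outside the members, were called about as often as all genes when both directions are counted, and more often lower than higher. Of the 48 that passed the filter, 15 fell and 4 rose on chow, 39.6% against 43.4% of all genes, and 13 fell and 1 rose with HFD in WT, 29.2% against 29.3%. The lower calls were 31.2% on chow against 21% of all genes and 27.1% with HFD in WT against 15%, and the higher calls 8.33% against 22.3% and 2.08% against 14.3%. The 4 with the smallest p on chow were Clu (clusterin, an inhibitor of the membrane pore) at -2.53 (adjusted p = 3.26e-06), the lectin gene Fcna at -1.35 (adjusted p = 2.05e-05), Serpina10 (the protein Z-dependent inhibitor of factor Xa) at -2.24 (adjusted p = 2.35e-05) and Ggcx (the vitamin K-dependent carboxylase of the clotting factors) at -0.86 (adjusted p = 0.000376). With HFD in WT they were Serpina10 at -2.17 (adjusted p = 6.96e-05), Clu at -1.87 (adjusted p = 0.000127), C1rb at -1.33 (adjusted p = 0.0015) and A2m, a broad protease inhibitor. A2m was fitted at -10.56, but without WT chow library 2 it was -1.96 and no longer called. With the mitochondrial share as a covariate all 4 named on chow lost their calls, when 0.963% of all genes were called. With HFD in WT Clu, C1rb and A2m lost theirs with that share, and C1rb and A2m also with the clock level. Serpina10 kept its call there with both. On HFD between genotypes Fcna alone of the 48 was called, lower at -0.90 (adjusted p = 0.0494), which is 2.08% against 0.455% of all genes. That call was lost in all fits without 1 library but that without WT HFD library 2 (-0.99 to -0.81 over the 10). Next by p were Cd46, a membrane regulator of complement, at 3.70 and Vsig4, the macrophage receptor for C3b and also a Kupffer marker, at -1.10, neither past the threshold with edgeR and both with DESeq2. Cd46 was at 0.222 to 0.461 CPM in WT HFD and 0.948 to 9.30 in labelled LXRα-/- HFD. Serpina5 followed, at 0 to 0.184 CPM in WT HFD and 0 in all 5 labelled LXRα-/- HFD libraries, too low for a fold. The interaction called 7 of the 48, all positive, 14.6% against 19.4%, led by Clu at 1.81 (adjusted p = 0.00475), Serpina10 at 1.95 (adjusted p = 0.00483), C1rb at 1.34 (adjusted p = 0.0216) and A2m at 10.29, which was 1.51 and not called without WT chow library 2. A2m lost its call without WT chow library 2, WT HFD libraries 2, 3 or 4, labelled LXRα-/- chow libraries 2, 3 or 5 or labelled LXRα-/- HFD libraries 2 or 4 (1.51 to 13.04 over the 20 fits). Clu, Serpina10, C1rb and A2m all lost their interaction calls with either covariate. HFD in labelled LXRα-/- called 0 of 48, against 0.0159% of all genes. Cfp, Vsig4, Proz and Anxa2 had the smallest p there, at -0.88, -0.87, -0.37 and 0.75.

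Of 13 transcription regulators and signalling genes of the liver and acute phase response, 5 fell and 3 rose on chow, 61.5% against 43.4% of all genes. Stat3, the mediator of interleukin 6 signals, was at 154, 118, 111, 158 and 178 CPM in WT chow and 20.3 to 56.3 in the other 15 libraries. Its log2 fold change was -1.73 (adjusted p = 1.65e-05) on chow and -1.53 (adjusted p = 0.000118) with HFD in WT, a fall in both. Il6ra, the interleukin 6 receptor, fell by the same comparisons, at -1.13 (adjusted p = 0.00163) and -1.45 (adjusted p = 0.000396). The nuclear receptor genes Nr1h4 and Nr1i2 rose on chow, at 0.77 (adjusted p = 0.00125) and 0.79 (adjusted p = 0.00227). Stat3, Il6ra, Nr1h4 and Nr1i2 lost their calls on chow with the mitochondrial share as a covariate, when 0.963% of all genes were called. The calls of Stat3 and Il6ra with HFD in WT were lost with that share and with the clock level. With HFD in WT 4 of 13 were called, 30.8% against 29.3%, the other 2 being Nr0b2, higher at 1.14 (adjusted p = 0.0183), and Socs3, lower at -1.57 (adjusted p = 0.0384). Socs3 lost its call without WT chow libraries 1 or 2 or WT HFD libraries 2, 3, 4 or 5 (-1.78 to -0.96 over the 10 fits). Nr0b2 lost its call without WT HFD library 2 (0.92 to 1.31 over the 10 fits). Nr0b2 and Socs3 also lost these calls with the mitochondrial share and with the clock level. The interaction called 3 of 13, 23.1% against 19.4%: Il6ra at 1.43 (adjusted p = 0.0097), Nr0b2 at -1.49 (adjusted p = 0.0375) and Stat3 at 0.99 (adjusted p = 0.0462), and Nr1i2 came next at -0.55 (adjusted p = 0.165), not past the threshold. Nr0b2 lost its call without WT chow library 5, WT HFD libraries 2 or 5, labelled LXRα-/- chow libraries 1, 2 or 3 or labelled LXRα-/- HFD libraries 2, 4 or 5 (-1.68 to -1.28 over the 20 fits). Stat3 lost its call in every fit without 1 library but those without WT chow libraries 2 or 3, WT HFD library 1, labelled LXRα-/- chow library 4 or labelled LXRα-/- HFD libraries 3 or 5 (0.81 to 1.12 over the 20 fits). With either covariate the interaction calls of Il6ra, Nr0b2 and Stat3 were lost. On HFD 0 of 13 passed between genotypes, against 0.455% of all genes, with Stat3 at -0.74, Nr1h4 at 0.47, Onecut1 at -0.77 and Nr1i2 at 0.25. In labelled LXRα-/- 0 of 13 passed between diets, against 0.0159% of all genes, with Stat3 at -0.54, Nr1i2 at -0.33, Socs3 at -0.88 and Hnf4a at -0.24.

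By level, 21 members had a median of at least 100 FPKM over the 20 libraries, 21 lay between 10 and 100, and 5 were under 10. In WT chow the order by median began with Fga, Fgg, Fgb and C3, ahead of Kng1, while in the whole set of libraries Kng1 came first, followed by C3 and Fgb. The WT chow libraries differed among themselves: library 2 was the highest of its group for 16 members and the lowest for 14, library 4 for 13 and 10, and library 5 for 6 and 15. The other groups had such libraries too, as library 1 of labelled LXRα-/- chow was lowest of its group for 24 members and library 5 of that group highest for 22.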

How the data were processed

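Liver RNA of 20 mouse libraries was measured by poly(A) sequencing, and groups were taken from the sample titles and characteristics. The deposited table held raw read counts per gene and, per the file headers, FPKM values made by the authors for the same libraries, with gene names and coordinates. The genome build mm8 and the tools HISAT2 2.0, StringTie 1.3.0 and Bowtie 0.12.2 come, without roles, from the submitters' processing notes. How reads were counted, and whether by strand, is not given in the sources used here. The deposited starts equal those of GENCODE M21 on GRCm38 for 99.6% of the 55144 gene IDs found there and for all 47 members, so coordinates are given as GRCm38. FPKM was proportional to count per gene within each library.

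Library totals were 75549139 to 108889938 counts, with 16546 to 18254 genes at 10 or more counts. Counts were filtered with filterByExpr, scaled with TMM and fitted in edgeR 4.0.16 (R 4.3.3) by the quasi-likelihood F test over all 4 groups, which leaves 16 residual degrees of freedom. The 5 contrasts were genotype on chow, genotype on HFD, diet in WT, diet in labelled LXRα-/- and their interaction, each adjusted by the Benjamini-Hochberg method over 18905 genes at 0.05. DESeq2 1.42.0, limma 3.58.1 with voom quality weights, other scalings and filters, the groups compared alone, a replicate block, the mitochondrial share or clock level as covariate, and leaving out each library were tried as alternatives. The scripts were tested on simulated counts first. Replicate numbers did not pair the libraries.

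The members and gene lists were chosen with earlier results of these data known. All members are named, and values in every library are given for the 2 members with the smallest p over the 4 groups in each of 11 role groups and up to 12 with an interaction. F11 and Cfd were added to these after their values were seen. The other lists were named by their 4 smallest p per contrast. Promoter sequences were matched by gene name in a RefSeq table on GRCm38.p6, which held 36 of the 47 members. Of the members, 17 overlap another gene of the table, and for 6 of them that gene had over 1% of the member's counts: F5, Serpind1, Masp1, Masp2, C2 and C8g.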

Additional observations from a re-analysis of the deposited data

Results flagged for a closer look

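Dixon's ratio was taken on log2 FPKM for each member in each group. In 10 of 188 such sets of 5 libraries, 1 library passed the 95% critical value of 0.71. Chance gives about 1 in 20, so this number is near that of chance. In WT chow, library 4 was low for F5 at 18.2 FPKM and for F11 at 13.9. Library 2 of that group was low for Serpind1 at 142 FPKM and for C1ra at 85.3. In labelled LXRα-/- chow, library 1 was low for Serpind1 at 86.2 FPKM and for Plg at 202, and library 4 was low for Pros1 at 3.29. In labelled LXRα-/- HFD, library 3 was low for Mbl2 at 54.6 FPKM, library 5 for C3 at 322 and library 4 for C6 at 22.5. All 10 were low values on the log2 scale, which draws in high values such as Fga in WT chow library 2 at 9135 FPKM. Unlogged FPKM was not tested in this way, so the lack of high values holds for that scale only.

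The genotype difference depended on diet, by edgeR's interaction term, for 18 members. Among the clotting genes it was 3.91 on the log2 scale for Fga, 2.99 for Fgg, 2.14 for Fgb, 2.14 for F13b, 1.56 for F2, 1.33 for Pros1, 1.18 for F7 and -1.89 for Klkb1. Among the fibrinolysis genes it was 1.99 for Cpb2, 1.004 for Hrg and 0.89 for Plg. Among the complement genes it was 1.63 for C4bp, 1.42 for C3, 1.37 for C8a, 1.36 for Serping1, 1.17 for Cfi, 1.14 for C2 and 1.14 for C1ra. The mitochondrial share of counts was 3.89% to 5.67% in WT chow, a group that enters all 18 contrasts, and 9.77% to 29.6% in the rest, and F13b alone stayed past the threshold with that share in the fit.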

How the results depend on the processing

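Counts of members called stayed within 1.5 times those reported under other scalings and filters, with the groups compared alone and with any 1 library left out. Single calls were less stable. Besides the fits without 1 library, Serpind1 on chow lost its call in 8 settings, Tfpi in 7, F9 and C6 in 6 each and C9 in 5. With HFD in WT, Kng2 and Masp2 lost theirs in 6 each and C4b in 4. For the interaction, Hrg and C8a lost theirs in 4 each. The groups compared alone gave 26 on chow, 55.3% against 40.2% of all genes. With 1 library left out, 28 to 34 members were called for the genotype on chow and 29 to 31 for HFD in WT. The interaction called 16 to 22 members, and the other 2 comparisons 0. On chow those fits called 3770 to 4205 of all genes higher and 3617 to 3914 lower, of 19190 to 19348 tested. For HFD in WT they called 2278 to 2705 higher and 2377 to 2894 lower, and for the interaction 1621 to 2129 and 1423 to 2017. With the mitochondrial share as a covariate the counts were 2 on chow, 12 for HFD in WT and 1 for the interaction, while those of all genes were 182, 1462 and 76, and with the clock level 21 for HFD in WT and 7 for the interaction, with 2063 and 765 of all genes. On HFD between genotypes DESeq2 called 1 member and voom 2, against 2.81% and 3.61% of all genes. With the mitochondrial share the direction on chow reversed for Serpind1 at 0.00448, Tfpi at -0.14 and Serpinf2 at 0.0818. The cause was not tested. The same-numbered libraries of different groups deviated with correlations of -0.113 to 0.0779, and 3 of 20 correlated best with their own number, so the numbers do not pair the libraries. With the replicate number as a block, the counts were 29, 0, 30, 0 and 16 in the order of contrasts given above. In that order the block called 41.4%, 0.222%, 27.4%, 0.00529% and 17.5% of all genes. Of the 33 members called on chow 28 kept their call without any 1 library, as did 27 of 32 for HFD in WT and 16 of 18 for the interaction. The share of all called genes that kept their call in this way was not computed, so these counts have no background. Group differences of Fga over Fgb and the other ratios moved by less than their spread when taken from counts. That result follows from FPKM being proportional to count, so it is no separate check of the ratios. Vwf and Tfpi, under 1 FPKM at the median, are limited by depth.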
